A study of Homo sapiens with 4 samples.

Results

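Synaptic and neural adhesion molecules were followed as a class of 55 genes among the 57820 genes counted, chosen by name: neurexins and neuroligins, contactins and their CNTNAP partners, postsynaptic leucine-rich repeat proteins, LAR-type phosphatases, teneurins with latrophilins and FLRT proteins, the L1 family, and the NCAM, DSCAM and IgLON proteins. Earlier results of these data were known when the genes were chosen. All 55 symbols were found once among the gene identifiers, and 40 had enough fragments to be tested. SY5Y cells, a human neuroblastoma (NB) cell line with wild type MYCN, were treated for 12 h with SGSS05-NS or with DMSO, the solvent, with 2 libraries in each group. The study describes its RNA-seq as made with SGSS05-NS3, a covalent inhibitor of the histone methyltransferase SETD8. It also names a compound SGSS05-NS of the same series, and states that such compounds inhibited other methyltransferases too at low micromolar concentrations. Whether the labelled SGSS05-NS is SGSS05-NS3 is not settled here. The labels give a dose of 3 μM, as does the study where it describes its SY5Y results, but its methods give SY5Y cells a different dose, so the dose is not settled here. Both groups come from 1 cell line, and the study calls the replicates independent biological ones.

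These proteins sit in the membrane of neurons and neuron-like cells and bind partners on a neighboring cell. Neurexins on the presynaptic side bind neuroligins and LRRTM proteins on the postsynaptic side. LAR-type phosphatases bind SLITRK proteins and LRRC4B, and teneurins bind latrophilins, which can also hold FLRT proteins. Many of their genes are among the longest of the genome because of very long introns, and others consist of almost nothing but exon. A gene's span is used here for the distance from its start to its end on the genome, introns included.

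Gene totals were between 21463105 and 25350204 fragments per library, of which the 55 genes took between 37705 and 80075. The share of all fragments, unmapped and multimapping ones included, that fell in no annotated exon of the counted strand was 12.3% and 12.4% with DMSO. It was 15.3% and 16.1% with SGSS05-NS. Of 10 markers of adrenergic neuroblastoma, 9 were tested and their summed level was 4143 and 4488 CPM (fragments of a gene relative to the TMM-scaled size of its library, not divided by gene length) with DMSO and 2528 and 2488 CPM with SGSS05-NS, so these markers were present in every library, while TH, which encodes tyrosine hydroxylase, was near 0. Markers of Schwann cells and glia summed to between 1.40 and 2.03 CPM, and those of fibroblasts, endothelium and immune cells to between 2.97 and 3.36 CPM, with SOX10 and DCN at 0 in all 4 libraries. In a bulk sample, fewer cells that express a gene and less RNA per cell cannot be told apart.

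Of the 40 genes tested, 16 were lower (40%) and 2 were higher (5%) with SGSS05-NS at an adjusted p-value under 0.001, where among all 16468 genes tested 8.14% were lower and 6.37% were higher. These calls are from the quasi-likelihood test of edgeR, adjusted by Benjamini-Hochberg over every gene tested. At an adjusted p-value under 0.05, 21 were lower and 5 higher, where 23.7% and 22.6% of all genes tested were. Both treated libraries lay below both controls in 27 of the 40 genes and above them in 6, beside 36.9% and 37.8% of all genes tested. The median log2 fold change of the 40 genes was -0.80, beside 0.01 over all genes tested. Of the 16 lower genes, 15 span at least 200 kb, and the exception was SLITRK6. Both of the higher genes, LRRTM2 and LRRC4, span under 7 kb. The lower genes kept between 15.3% (TENM2) and 64.5% (NCAM1) of their mean DMSO level. Together, the 55 genes summed to 3018 and 3427 CPM with DMSO and to 1699 and 1727 CPM with SGSS05-NS, and the groups did not overlap.

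For 3 long genes that fell and for the short gene that fell, the sequence before a RefSeq transcription start is shown, because these genes moved together while their spans differ. The sequences run 5′ to 3′ on the strand of the gene, and bases that lie in an exon of a protein-coding gene were left off. Each was found once in GRCh37, the build of the counts. Capitals mark matches, on either strand, to the GC box (GGGCGG) or to the CCAAT box (CCAAT).
NLGN4X, minus strand, chrX:6146909-6147158: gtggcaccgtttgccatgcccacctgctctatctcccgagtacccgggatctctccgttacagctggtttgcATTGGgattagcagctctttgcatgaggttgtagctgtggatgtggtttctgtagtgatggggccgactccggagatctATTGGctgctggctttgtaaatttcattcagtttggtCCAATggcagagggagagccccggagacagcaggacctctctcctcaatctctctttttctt
TENM3, plus strand, chr4:183064866-183065115: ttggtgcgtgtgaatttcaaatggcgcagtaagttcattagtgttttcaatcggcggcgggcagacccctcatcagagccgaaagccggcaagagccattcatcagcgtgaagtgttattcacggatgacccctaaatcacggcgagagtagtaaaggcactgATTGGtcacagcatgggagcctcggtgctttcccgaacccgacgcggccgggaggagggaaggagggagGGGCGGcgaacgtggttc
CNTNAP5, plus strand, chr2:124782614-124782863: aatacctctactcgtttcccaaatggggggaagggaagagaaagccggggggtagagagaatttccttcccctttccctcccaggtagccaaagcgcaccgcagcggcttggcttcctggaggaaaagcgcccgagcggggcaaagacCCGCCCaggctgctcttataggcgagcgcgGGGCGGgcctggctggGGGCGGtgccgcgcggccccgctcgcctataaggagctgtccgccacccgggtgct
SLITRK6, minus strand, chr13:86373569-86373804: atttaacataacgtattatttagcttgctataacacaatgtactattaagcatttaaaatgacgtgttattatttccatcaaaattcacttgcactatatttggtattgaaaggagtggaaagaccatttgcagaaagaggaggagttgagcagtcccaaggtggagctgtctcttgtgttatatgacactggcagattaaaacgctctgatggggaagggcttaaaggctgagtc

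These 4 sequences differed in the motifs they hold. The RefSeq start of SLITRK6 lies within the span that GENCODE gives the gene. The NLGN4X sequence holds 3 CCAAT boxes, that of TENM3 holds 1 GC box and 1 CCAAT box, that of CNTNAP5 holds 3 GC boxes, and that of SLITRK6 holds neither. The share of G and C was 37.7% for SLITRK6 and 66.0% for CNTNAP5. RefSeq had sequence for 14 of the 16 lower genes, some with several starts, and 10 of the 14 had a CCAAT box and 9 a GC box before at least 1 start. Counted in the same way over all 35 tested genes with sequence, 14 had a CCAAT box and 21 a GC box. Other motifs were searched as well, and none was found in more than 3 of the 14 lower genes. Among 35116 promoter entries of this length, 32.0% held a CCAAT box and 42.6% a GC box, a share per entry and not per gene. Whether the lower genes differ from other genes in these motifs was not tested.

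Neurexins and neuroligins form the best known pair of adhesion partners across the synaptic cleft. All 6 genes were tested, and 2 were lower and 0 higher. NLGN4X (ENSG00000146938.10, chrX:5758678-6146908), an X-linked neuroligin, had 36.2 and 42.5 CPM with DMSO and 10.4 and 9.48 CPM with SGSS05-NS. Its log2 fold change was -1.98 (standard error 0.13, edgeR adjusted p = 4.8e-07). NLGN1 (chr3:173114074-174012162), the neuroligin of excitatory synapses, had 7.85 and 7.66 CPM with DMSO and 1.80 and 2.76 CPM with SGSS05-NS. It fell by 1.76 on the log2 scale (standard error 0.22, edgeR adjusted p = 5.9e-05). In both genes the treated libraries lay far below the controls.

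The short neuroligins differed from the long ones. NLGN2 (15 kb, chr17:7308193-7323179), the neuroligin of inhibitory synapses, had 31.8 and 39.2 CPM with DMSO and 47.3 and 41.7 CPM with SGSS05-NS, and its log2 fold change of 0.32 (standard error 0.12, edgeR adjusted p = 0.042) did not pass the threshold. NLGN3 (30.4 kb) had a log2 fold change of -0.02 (standard error 0.17), and its libraries overlapped between the groups. NRXN2 (117 kb) had 40.1 and 40.0 CPM with DMSO and 39.7 and 34.7 CPM with SGSS05-NS, with a log2 fold change of -0.11. NRXN3, which spans 1698 kb, was rare, with 0.717 and 1.41 CPM against 0.180 and 0.680 CPM, and its log2 fold change of -1.27 (standard error 0.51, edgeR adjusted p = 0.060) was not called. It was -2.52 without SGSS05-NS replicate 2, -0.64 without SGSS05-NS replicate 1 and -0.73 without DMSO replicate 2.

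Contactins are adhesion proteins held in the membrane by a lipid anchor, and the CNTNAP proteins are their transmembrane partners at the axon. Of 11 genes, 9 were tested, 3 were lower and 0 were higher. CNTN1 (chr12:41086241-41466217) was, with NRCAM, the most abundant of the 55 genes per kb of exon, at 53.7 CPM per kb with DMSO. It had 393 and 428 CPM with DMSO and 110 and 157 CPM with SGSS05-NS, with a log2 fold change of -1.62 (standard error 0.14, edgeR adjusted p = 5.2e-06). CNTN4 (chr3:2140497-3099643) had 87.9 and 102 CPM with DMSO and 19.7 and 26.6 CPM with SGSS05-NS, and fell by 2.04 on the log2 scale (standard error 0.14, edgeR adjusted p = 6.3e-07). CNTNAP5 (chr2:124782864-125678796) went from 5.02 and 6.42 CPM to 0.631 and 1.40 CPM, with a log2 fold change of -2.47 (standard error 0.30, edgeR adjusted p = 5.4e-05). For these 3 genes the highest treated library was below the lowest control.

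CNTNAP2, the longest of the 55 genes at 2305 kb, was among the long genes that missed the threshold. It had 25.2 and 42.0 CPM with DMSO and 16.3 and 23.3 CPM with SGSS05-NS, and its log2 fold change of -0.76 (standard error 0.21, edgeR adjusted p = 0.012) was not called. Its libraries did not overlap between the groups, but its control libraries were far apart. The log2 fold change of CNTNAP2 passed the threshold with DMSO replicate 1 left out (-1.09) and with SGSS05-NS replicate 2 left out (-1.04), and over the 4 libraries left out in turn it ranged from -1.09 to -0.37. CNTNAP2 was also called with the replicate block (edgeR adjusted p = 1.1e-05) and without a filter on low counts (1.0e-08). The contactins with lower counts, CNTN6 (312 kb, log2 fold change -0.90, standard error 0.28) and CNTN3 (352 kb, -0.84, standard error 0.47), were not called. CNTN2 (35.4 kb, log2 fold change 0.21, standard error 0.11) and CNTNAP1 (17.5 kb, 0.44, standard error 0.20), the short genes of the group, were not called either. CNTNAP3 has near-identical copies in the genome, and pairs that map to several places were left out of the counts, so its level, between 0.631 and 1.08 CPM, is uncertain.

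The postsynaptic leucine-rich repeat proteins of the LRRTM, LRRC4 and SLITRK families organize synapses by binding neurexins, netrin-G proteins or LAR-type phosphatases. Of these 13 genes, 7 were tested, and 2 were higher and 1 was lower. Both higher adhesion genes belong to this group, and whether it differs from the other groups was not tested. LRRTM2 (ENSG00000146006.7, chr5:138204610-138211057), a neurexin ligand of excitatory synapses, had 11.8 and 9.80 CPM with DMSO and 36.9 and 35.4 CPM with SGSS05-NS. It rose by a log2 fold change of 1.74 (standard error 0.13, edgeR adjusted p = 1.1e-06). LRRC4 (ENSG00000128594.3, chr7:127667124-127672160), also known as NGL-2, had 18.1 and 24.9 CPM with DMSO and 52.7 and 51.0 CPM with SGSS05-NS, a log2 fold change of 1.27 (standard error 0.14, edgeR adjusted p = 2.0e-05). Of the span of these genes, 6.1 of 6.4 kb and 4.4 of 5.0 kb are exon. The treated libraries of both genes were close to each other and above both controls.

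LRRC4B (51.5 kb), a ligand of LAR-type phosphatases, had 34.6 and 34.5 CPM with DMSO and 50.1 and 43.5 CPM with SGSS05-NS, and its log2 fold change of 0.44 (standard error 0.11, edgeR adjusted p = 0.0054) was not called. SLITRK6 (ENSG00000184564.8, chr13:86366925-86380818), known for its part in the innervation of the inner ear, went against the order of span. It had 84.3 and 99.5 CPM with DMSO and 44.3 and 39.3 CPM with SGSS05-NS and fell by 1.14 on the log2 scale (standard error 0.11, edgeR adjusted p = 1.0e-05), with a span of 13.9 kb. Its relative SLITRK5 (24.9 kb) had a log2 fold change of -0.15 (standard error 0.19). LRRTM1 (16.4 kb) had one of 0.18 (standard error 0.31), and LRRTM4 (846 kb) one of -1.25 (standard error 0.26, edgeR adjusted p = 0.0019), which missed the threshold. In edgeR's likelihood ratio test, which the study used, LRRTM4 passed it (adjusted p = 2.0e-05).

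LAR-type receptor phosphatases are presynaptic organizers, and all 3 were tested. PTPRD (chr9:8314246-10613002), which spans 2299 kb, had 6.42 and 7.53 CPM with DMSO and 1.85 and 1.91 CPM with SGSS05-NS, with a log2 fold change of -1.89 (standard error 0.21, edgeR adjusted p = 2.5e-05). PTPRS (182 kb, chr19:5158506-5340823) was far more abundant, with 215 and 246 CPM with DMSO and 218 CPM in both treated libraries, and its log2 fold change was -0.08 (standard error 0.10, edgeR adjusted p = 0.54). PTPRF (98.5 kb) went from 93.2 and 106 CPM to 78.6 and 75.3 CPM, with a log2 fold change of -0.37 (standard error 0.10, edgeR adjusted p = 0.0086) that was not called. The sum of the 3 genes, 315 and 359 CPM with DMSO and 298 and 296 CPM with SGSS05-NS, was therefore mostly that of PTPRS.

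Teneurins are very large proteins that bind latrophilins, adhesion receptors coupled to G proteins, and FLRT proteins bind latrophilins next to them. This group held the most lower genes, 5 of the 8 tested of 10, and 0 were higher. ADGRL2 (chr1:81771832-82459616), a latrophilin, had the highest CPM of the 55 genes, with 669 and 729 CPM with DMSO and 318 and 271 CPM with SGSS05-NS. Its log2 fold change was -1.25 (standard error 0.11, edgeR adjusted p = 4.1e-06). TENM3 (ENSG00000218336.3, chr4:183065140-183724177) had 208 and 252 CPM with DMSO and 63.4 and 68.6 CPM with SGSS05-NS, and fell by 1.80 on the log2 scale (standard error 0.11, edgeR adjusted p = 3.7e-07). It had rank 20 by p-value among all genes with a negative fold change, the first place among the 55 genes.

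TENM4 (chr11:78363874-79152074) had 141 and 156 CPM with DMSO and 33.7 and 45.4 CPM with SGSS05-NS, with a log2 fold change of -1.91 (standard error 0.13, edgeR adjusted p = 7.4e-07). TENM2 (chr5:166406034-167691162) had 3.99 and 5.39 CPM with DMSO and 0.631 and 0.808 CPM with SGSS05-NS, and its log2 fold change of -2.69 (standard error 0.29, edgeR adjusted p = 1.9e-05) was the most negative of the 40 genes. ADGRL3 (878 kb) went from 35.2 and 44.7 CPM to 8.92 and 15.1 CPM, with a log2 fold change of -1.73 (standard error 0.20, edgeR adjusted p = 3.5e-05). All 3 teneurins tested and both long latrophilins thus fell, with no overlap between groups. The short members were not called. ADGRL1 (58.4 kb, chr19:14258555-14316999) had 65.3 and 72.2 CPM with DMSO and 86.2 and 81.0 CPM with SGSS05-NS, with a log2 fold change of 0.28 (standard error 0.10, edgeR adjusted p = 0.031). FLRT3 (14.6 kb) had 31.0 and 35.8 CPM against 28.5 and 27.3 CPM, with a log2 fold change of -0.26 (standard error 0.11, edgeR adjusted p = 0.076).

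The L1 family anchors axons to the cytoskeleton through ankyrins. Of its 4 genes, 3 were tested and 1 was lower. NRCAM (chr7:107788068-108097161) had the highest level per kb of exon, 56.6 CPM per kb with DMSO, and went from 415 and 487 CPM to 170 and 185 CPM, with a log2 fold change of -1.34 (standard error 0.11, edgeR adjusted p = 2.3e-06). L1CAM (24.7 kb, chrX:153126969-153151627), the founding member, had 69.9 and 79.2 CPM with DMSO and 67.0 and 56.4 CPM with SGSS05-NS, and its log2 fold change of -0.27 (standard error 0.11, edgeR adjusted p = 0.058) was not called. NFASC (194 kb), neurofascin, had one of -0.24 (standard error 0.11). The treated libraries were below the controls in all 3 genes, but the gap was wide in NRCAM alone.

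Among the NCAM, DSCAM and IgLON genes, 4 of 8 were tested and 3 were lower. NCAM1 (chr11:112831997-113149158), the neural cell adhesion molecule CD56 of neuroblastoma diagnostics, had 122 and 127 CPM with DMSO and 77.2 and 83.8 CPM with SGSS05-NS, and its fall of 0.63 on the log2 scale (standard error 0.09, edgeR adjusted p = 0.00022) was the smallest of the 16. LSAMP (chr3:115521221-116858236), an IgLON first found in the limbic system, had 47.5 and 68.5 CPM with DMSO and 17.2 and 29.3 CPM with SGSS05-NS, with a log2 fold change of -1.31 (standard error 0.21, edgeR adjusted p = 0.00040). NEGR1 (chr1:71861626-72748222), an IgLON with a role in neurite growth, went from 27.7 and 31.7 CPM to 7.39 and 13.3 CPM, with a log2 fold change of -1.52 (standard error 0.20, edgeR adjusted p = 0.00011). LSAMP was the one lower gene that lost its call in another test, with an adjusted p of 0.013 in DESeq2. NCAM2 (545 kb) had 2.75 and 2.87 CPM against 1.13 and 1.11 CPM, and its log2 fold change of -1.33 (standard error 0.25, edgeR adjusted p = 0.0013) missed the threshold. NCAM2 passed it with DMSO replicate 1 left out, in edgeR's likelihood ratio test (adjusted p = 5.4e-06), without a filter (3.3e-06) and with the replicate block (0.00026).

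The 15 genes that were not tested had at most 11 fragments in any library. SLITRK1, SLITRK2, SLITRK4 and FLRT2 had 0 fragments in all 4 libraries, which allows a level of up to 0.118 to 0.140 CPM per library (3 counts, counting error only). OPCML and NTM, IgLON genes, had at most 1 fragment per library, as did LRRTM3. For CNTN5 the ratio of the scaled counts of SGSS05-NS to those of DMSO was 3.18, with a counting interval from 0.569 to 32.2 (95%, exact binomial). For SLITRK3 it was 2.54 (0.834 to 9.22), for CHL1, the fourth L1 family gene, 1.94 (0.659 to 6.40), and for TENM1 0.471 (0.106 to 1.69). Each of these intervals includes 1. CNTNAP4, LRRC4C, DSCAM and DSCAML1, all over 200 kb, had between 1 and 11 fragments per library and were too rare to be tested.

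Across the 40 genes tested, the log2 fold change followed the span: Spearman's rho was -0.81, a description across genes, which are not independent replicates. For the length of the introns alone it was -0.82 and for the exonic length -0.33. The mean level did not run along with the span, since the rho of span and mean log2 CPM was -0.12, and that of log2 fold change and mean log2 CPM was 0.00. All 22 genes of at least 200 kb had a negative log2 fold change, while 8 of the 18 shorter genes had a positive one. The longest genes did not fall the most. Those longer than TENM2 (1285 kb, -2.69) were LSAMP (-1.31), NRXN3 (-1.27), PTPRD (-1.89) and CNTNAP2 (-0.76). When all 51 genes with any fragment were kept, the rho was -0.60, with 11 genes of very few fragments added. The share of fragments in no annotated exon of the counted strand was higher in the treated libraries (above), and its part in this relation was not tested.

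**Figure D1:**
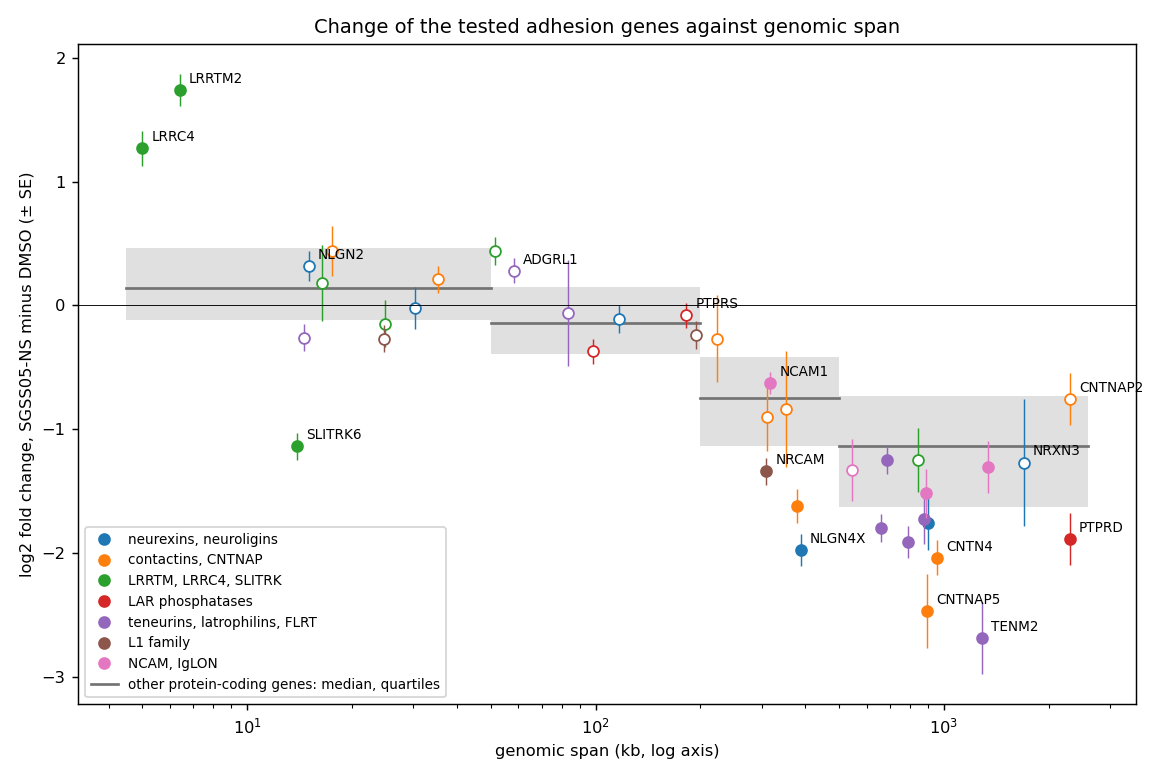
Log2 fold change (SGSS05-NS minus DMSO, ± standard error) of the 40 tested adhesion genes against genomic span in kb (log axis), colored by group; filled points passed an adjusted p-value of 0.001 and open points did not. Gray lines and bands are the median and quartiles of the other protein-coding genes in 4 classes of span. The highest adhesion gene is LRRTM2 (1.74) at 6.4 kb and the lowest TENM2 (-2.69) at 1285 kb. The genes longer than TENM2 lie above it, and SLITRK6 lies below and CNTNAP2 above the rest of their class.

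The same direction was seen outside the class. Over the 12527 other protein-coding genes tested, the rho of log2 fold change and span was -0.42, and their median span was 34.7 kb, against 310 kb for the 40 genes. Among the other genes, the share of lower genes was greater in each longer class of span, while among the adhesion genes it was low in both classes under 200 kb and high in both above. At 500 kb and over, 11 of 15 adhesion genes were lower (73.3%) beside 115 of 201 other protein-coding genes (57.2%), with a median log2 fold change of -1.73 beside -1.14. Between 200 and 500 kb, 4 of 7 were lower (57.1%) beside 399 of 832 (48.0%), with medians of -0.90 and -0.75. Between 50 and 200 kb, 0 of 7 adhesion genes were lower beside 374 of 3841 (9.74%). This count of 0 is from edgeR's quasi-likelihood test, and the median of the 7 genes was -0.08. Under 50 kb, 1 of 11 adhesion genes was lower (9.09%) beside 166 of 7653 other genes (2.17%), and 2 of 11 were higher (18.2%) beside 768 of 7653 (10%). The differences between the class and other genes of like span were not tested.

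**Figure D2:**
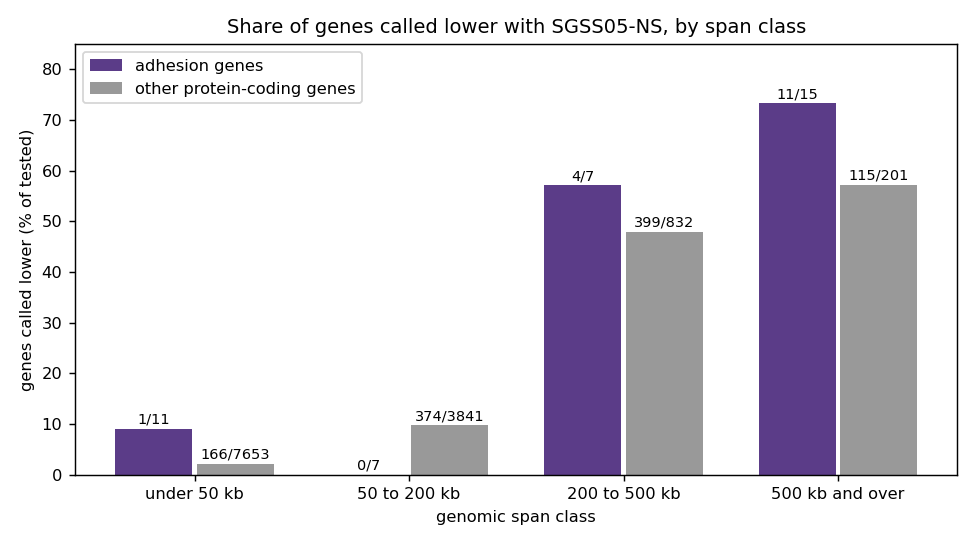
Share of tested genes called lower with SGSS05-NS (percent, edgeR adjusted p-value under 0.001) in 4 classes of genomic span, for the 40 adhesion genes (purple) and the other protein-coding genes (gray); the numbers over the bars are genes called lower of genes tested. Both shares are greatest at 500 kb and over, at 73.3% and 57.2%.

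The summed levels showed the same split. Adhesion genes of at least 500 kb, all 21 of them, summed to 1272 and 1461 CPM with DMSO and to 492 and 503 CPM with SGSS05-NS, 36.4% of the control mean. Those between 200 and 500 kb, 10 genes, kept 39.3%. The 9 genes between 50 and 200 kb kept 96.8% and the 15 genes under 50 kb 101%, with overlapping libraries in both classes. The fall in the summed level of the class thus came from genes of at least 200 kb.

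Relatives within a family were compared by the ratio of the fragments of the longest tested member to those of the shortest, which does not depend on how libraries are scaled. In 9 of 12 families the ratio was lower in both treated libraries than in both controls, in 1 it was higher, and in 2 the groups overlapped. Such ratios were not formed for other genes, among which the log2 fold change also fell with longer span (rho -0.42 over other protein-coding genes). Whether these families differ from other genes in this was not tested. The order of all tested members by log2 fold change followed their order by span in 5 of the 12 families. Among these 5, the neurexins and the LRRC4 genes had only 2 tested members each. The families with 4 or 5 tested members, the neuroligins, contactins and CNTNAP genes, did not follow it. In the L1 family, NFASC (194 kb, -0.24) and L1CAM (24.7 kb, -0.27) did not either. With 2 libraries against 2, an exact permutation test cannot give a two-sided p below 0.333, which it gave for each of the families without overlap. The ratio of LRRTM4 to LRRTM2 went from 0.298 and 0.279 to 0.0354 and 0.0373, a log2 change of -2.99. That of CNTN4 to CNTN2 went from 4.46 and 4.79 to 0.811 and 1.15, with a log2 change of -2.26. For the latrophilins, ADGRL3 to ADGRL1, the log2 change was -2.05, and for the neuroligins, NLGN1 to NLGN2, it was -2.13. The family with the opposite direction was SLITRK, where SLITRK5 to SLITRK6 went from 0.0581 and 0.0542 to 0.113 and 0.109. The overlapping families were the neurexins and the FLRT genes.

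Several short members lie whole inside a much longer gene, on its other strand, which sets genes of the same place but different span side by side. LRRTM2 lies inside CTNNA1 (324 kb), which encodes an alpha-catenin, and CTNNA1 had a log2 fold change of -0.41 (standard error 0.10, edgeR adjusted p = 0.0044, not called) where LRRTM2 rose by 1.74. LRRC4 lies inside SND1 (440 kb), which had a log2 fold change of -0.56 (standard error 0.11, edgeR adjusted p = 0.0012, not called) where LRRC4 rose by 1.27. LRRTM1 lies inside CTNNA2 (1464 kb), a neural alpha-catenin that fell by 0.87 (standard error 0.12, edgeR adjusted p = 0.00015), while LRRTM1 was not called. FLRT3 lies inside MACROD2 (2058 kb), which had a log2 fold change of -0.65 (standard error 0.21, edgeR adjusted p = 0.025). The counts used were those of 1 strand, and among the called members at most 3.72% of fragments lay on the other strand. LRRTM1 had 18.6% of its fragments on the other strand and between 1.36 and 2.70 CPM. Its log2 fold change ranged from -0.25 to 0.73 over the libraries left out, so it is uncertain. FLRT1, inside MACROD1, had 64.3% of its fragments on the other strand and between 0.359 and 0.514 CPM, so its value is uncertain as well.

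The treated replicates also differed along the span. Among the 16 lower genes, replicate 2 had the higher CPM in 13 with SGSS05-NS, with a median log2 difference of 0.39 from replicate 1 and the widest, 1.15, in CNTNAP5. Across the 40 genes, replicate 2 was the higher one in 21 with SGSS05-NS, with a median log2 difference of 0.02. The rho of this difference with span was 0.69. Between the DMSO libraries, replicate 2 had the higher CPM in 15 of the 16, with a median log2 difference of 0.23. Across the 40 genes, it was the higher one in 33, with a median of 0.20 and a rho with span of 0.22. These are differences between single libraries, with no test.

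The proteins that work with these adhesion molecules were read from 2 lists. Of 32 secreted or neighboring partners, 20 were tested, 5 were lower and 1 was higher, with a median log2 fold change of -0.07. Over all genes tested, 8.14% were lower and 6.37% were higher. The members with the smallest p-values were CBLN4 (log2 fold change -2.13, standard error 0.22), a cerebellin that bridges neurexins to their partners, LRFN2 (-1.73, standard error 0.19), a synaptic leucine-rich repeat protein, and LINGO2 (-2.34, standard error 0.27), which spans 1276 kb. CBLN4 spans 8.2 kb, LRFN2 195.8 kb, and CBLN2, which was also lower (-1.01, standard error 0.14), 101.8 kb. Genes under 200 kb thus fell here as well. LINGO1 (log2 fold change 1.05, standard error 0.19) was the higher one, although it spans 207.9 kb. Of 32 intracellular scaffolds, 26 were tested, 10 were lower and 1 was higher, with a median of -0.18. The share of lower scaffolds, 10 of 26, was thus near that of the adhesion genes, 16 of 40. MAGI1 (-1.47, standard error 0.10) and MAGI3 (-1.14, standard error 0.10), membrane scaffolds, and ANK2 (-1.51, standard error 0.12), an ankyrin that holds L1 family proteins, had the smallest p-values. DLG4, which encodes PSD-95, the main scaffold of excitatory synapses that binds neuroligins, spans 32.7 kb and was the higher one (0.81, standard error 0.11). All 10 lower scaffolds span over 200 kb. Other long scaffolds were not called: DLG2 (2173 kb, 0.33, standard error 0.40), SHANK2 (650 kb, -0.08, standard error 0.31) and DLGAP4 (263 kb, 0.04, standard error 0.14).

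Markers of the adrenergic state moved in the same direction as the adhesion genes: 7 of the 9 tested were lower, beside 8.14% of all genes tested. Their median log2 fold change was -0.81. All 10 marker genes span under 200 kb, and the part of this change in that of the adhesion genes was not tested.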

How the data were processed

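Total RNA of SY5Y cells was sequenced as strand-specific paired-end libraries with removal of ribosomal RNA, per the methods of the study, while the labels name a TruSeq RNA kit. Per the submitters' processing notes and the methods, the authors used Trimmomatic 0.30 for trimming and STAR 2.4.2a for alignment to hg19, and deposited the unscaled fragment counts of each gene, without normalization or pooling, in columns for both strands together and for each strand. Pairs that map to several places are not counted, and introns are not counted. The counts of the reverse strand were used; the other strand held between 4.64% and 5.05% of gene fragments. The 4 summary rows were left out. Gene names, spans and exons came from GENCODE 44 on GRCh37, the same build, by gene identifier without version (55538 of 57820 matched), so spans can differ from the older release used for counting. Promoter sequences are those of RefSeq (GRCh38.p14), trimmed and located in GRCh37 by exact match; 48 of the 55 genes had an entry.

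The conditions were compared by the quasi-likelihood test of edgeR 4.0.16 (R 4.3.3) after filterByExpr and TMM scaling, with no covariate and with Benjamini-Hochberg adjustment over 16468 genes and the study's threshold of 0.001. The standard error is the log2 fold change divided by the square root of F. The authors used edgeR's likelihood ratio test, which was an alternative here, as were DESeq2 1.42.0, voom of limma 3.58.1, other scalings, filters, strands and thresholds, the replicate block and each library left out. For genes with fewer than 10 DMSO counts in all, an exact binomial interval stands beside the ratio of scaled counts. On simulated counts for SGSS05-NS against DMSO (16468 genes, 200 changed), 61.0% of genes changed 2-fold and 87.0% of those changed 4-fold were recovered, with 0 false calls. In the data 2390 genes (14.5%) were called, far more than the simulation changed. The adjustment depends on that number, so these rates need not hold for the data. Counts of replicates were further apart than sampling alone gives, with a chi-square divided by its degrees of freedom of 8.76 for DMSO and 11.8 for SGSS05-NS.

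The members and lists were chosen with earlier results of these data known. Values in every library are given, in each of the 7 groups, for up to 3 lower and 3 higher genes with the smallest p-values and the most abundant gene not called, for the 5 longest and 5 shortest genes tested (26 genes in all), and of each partner list the 3 with the smallest p-values are named. Other genes, the host genes, the families and the 4 promoters shown were chosen after values were seen. Values of some single marker genes are not reported here.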

Additional observations from a re-analysis of the deposited data

How the results depend on the processing

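Under the other tests, scalings, filters and strands, between 15 and 20 adhesion genes were lower and 2 were higher, and 15 of the 16 lower genes were called in all 9 of these settings. The 16 were also called with each of the 4 libraries left out in turn, where the lone library of a group is assumed to vary like the other group: the number of lower genes was then between 16 and 19, that of higher genes 2, the median log2 fold change between -1.07 and -0.54, and the rho with span between -0.82 and -0.78. CNTN6 and LRRTM4 were each called with 1 library left out. An adjusted p-value under 0.05 gave 21 lower and 5 higher genes, where 23.7% and 22.6% of all genes were. The rho with span was -0.60 without a filter on low counts, by the 11 rare genes added, and -0.33 with the exonic length in place of the span. The log2 fold change of PTPRS, -0.08, ranged from -0.18 to 0.00 over the libraries left out, with 0.00 without DMSO replicate 2. The labels number the replicates alike in both groups, and whether same-numbered libraries were prepared together is not settled here. The correlation of same-numbered deviations was 0.0526, and with 2 pairs it cannot decide this. With the replicate block, 20 genes were lower and 2 higher, and the median was -0.80. All genes called went from 1341 lower and 1049 higher to 2007 and 1759 with the block. The likelihood ratio test called 2267 lower and 2022 higher, and without a filter 2570 lower and 2034 higher were called. With 2 libraries a group, the spread of a gene rests largely on other genes, and genes under about 1 CPM, such as NRXN3, have wide errors.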
